A study of Mus musculus with 6 samples.

Results

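The genes described here are 8 genes that mark the fetal-like and regenerative state of gut epithelium: Ly6a, Ly6c1, Ly6d, Ly6e, Clu, Anxa1, Anxa2 and Anxa3. They were taken by name and looked up by gene symbol in an RNA-seq table of mouse colon tumor cells, where all 8 were found among the 21959 genes used. The study asked how inhibition of the Group I p21-activated kinases (Paks) alters transcription in Apc-deficient colon tumor cells. Its cells were primary lines grown out of colonic adenomas, 3 lines per genotype, and kept in RPMI medium with serum. The table gives 1 pooled value per gene and condition, without a value per sample.

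PID- cells came from CDX2P-NLS-Cre;Apc(Δ/+) mice, in which a Cdx2 promoter directs Cre to gut epithelial cells, above all those of the colon and the lower small bowel. PID+ cells came from mice with the same Cre and Apc alleles that also carried ROSA26-PID, a lox-stop-lox allele from which Cre releases GST-PID*, a GST-tagged inhibitor peptide derived from Pak1, together with eGFP from an internal ribosome entry site. Both groups therefore share the Cre transgene and the Apc deletion. The sample labels number the PID- mice 1, 2 and 3 and the PID+ mice 4, 7 and 26, and describe the PID- samples as normal and untreated, although the study's methods describe tumor cells and number the PID- lines otherwise. The methods also speak of replicated sequencing runs where the labels name mice, so that it is not settled whether the 3 read sets of a condition were separate animals. Following the treatments in the labels, treated in the table was read as PID+ and untreated as PID-.

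When intestinal epithelium is injured, cells near the wound leave the homeostatic crypt program and switch on genes of the fetal gut, among them the surface protein Ly6a (Sca-1), the secreted chaperone Clu and several annexins. This state is linked to Yap signaling and to repair after colitis, irradiation or infection. Cells in it express little of Lgr5, the receptor that marks the crypt base stem cells of the resting gut. Ly6 proteins are small, cysteine-rich and mostly held at the cell surface by a lipid anchor, whereas annexins are cytoplasmic proteins that bind membrane phospholipids in the presence of calcium.

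Of the 8 genes, 7 were abundant in both conditions, and Clu was the only gene among them that differed at least 3-fold. Levels are FPKM, fragment counts scaled to transcript length and to library size, and each FPKM is followed by the confidence interval deposited with it. Changes are log2 ratios of FPKM + 1 in PID+ over PID- cells, a scale that understates the change of low genes. Clu was the 1 of the 8 genes at least 3-fold higher in PID+ cells, where 1.04% of all 21959 genes were. On this scale none of the 8 was at least 3-fold lower, against 1.72% of all genes. Of all calls 37.8% were in the higher direction, and 10.3% at equal Gapdh. Clu was also the only gene of the 8 whose deposited intervals did not overlap, which held for 0.187% of all genes in the higher and for 0.542% in the lower direction. Since each condition has only 1 pooled value, differences could not be checked against replicates and p-values were not calculated.

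Clusterin (Clu, ENSMUSG00000022037.11, chr14:65968483-65981547 of GRCm38, plus strand) is a secreted chaperone and marks the cells that rebuild the intestine after irradiation. It measured 1287 (464 to 2110.3) FPKM in PID+ against 259 (115 to 403) in PID- cells. The bounds facing each other, 464 and 403, left a gap, and the ratio of PID+ to PID- was 4.97, a log2 change of 2.31. By FPKM it held rank 42 in PID+ and rank 267 in PID- cells. Its log2 change stood at rank 57 among all 21959 genes from the highest down. When Gapdh FPKM was set equal in the conditions, the log2 change of Clu was 1.68, which is still past 3-fold, but its intervals, scaled in the same way, then overlapped.

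Few genes that reached an FPKM of 100 in either condition were higher in PID+ cells by as much as Clu. Genes lower in PID+ cells, such as Spp1 and Anxa6 with log2 changes of -3.59 and -2.46, were not counted here. A gene could also enter this set through the condition in which it was high. Among the 963 genes that reached an FPKM of 100 in either condition, 2.28% were higher by at least 3-fold and 1.14% had intervals apart with PID+ above. Clu was 1 of 8 of these 963 genes with a log2 change of at least its own size. Of the 42 genes with an FPKM in PID+ cells equal to or above that of Clu, only Clu and the platelet chemokine gene Ppbp were at least 3-fold higher. This set was chosen by the level in PID+ cells, where Clu was high, so the count does not show how unusual its change was. Genes of chromosome 14 with a mean FPKM of at least 5 had a median log2 change of 0.25 (316 genes), and with that median subtracted the log2 change of Clu was 2.05.

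The genes nearest to Clu in the plane of log2(FPKM + 1) in PID+ and PID- cells, over these 2 pooled values, were H2afz at a distance of 0.69, Ppbp at 0.87 and Tubb4b at 1.02. H2afz, a histone variant gene, measured 1148 (423 to 1872) FPKM in PID+ against 413 (164 to 663) in PID- cells. Ppbp had an FPKM of 2321 (862 to 3779) and 231 (103 to 358), with intervals apart as for Clu. Tubb4b, a beta-tubulin gene, had an FPKM of 633 (275 to 992) and 271 (124 to 418). The intervals of H2afz and Tubb4b overlapped between the conditions, so that of these 3 neighbours, picked for their likeness to Clu, Ppbp alone had intervals apart.

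Ly6a (ENSMUSG00000075602.7, chr15:74994877-74998031, minus strand), the Sca-1 antigen by which regenerating crypts are often sorted, was the most abundant of the 8 genes in PID+ cells. PID+ cells had 2805 (927 to 4682) FPKM of it and PID- cells 1699 (609 to 2789), ranks 14 and 22 of all genes. The intervals overlapped from 927 to 2789, and the log2 change was 0.72, or 0.10 at equal Gapdh. Ly6a was thus among the most abundant mRNAs of both conditions, and its difference between them lay within the deposited error.

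Ly6e (ENSMUSG00000022587.11, chr15:74955051-74959905, plus strand), a lipid-anchored and interferon-inducible protein of the same family, was at a similar level. It measured 2456 (785 to 4127) FPKM in PID+ against 1820.3 (650.3 to 2990.4) in PID- cells, ranks 20 and 19. The intervals overlapped, and the log2 change of 0.43 turned to -0.19 when Gapdh was set equal.

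Ly6c1 (ENSMUSG00000079018.7, chr15:75044018-75048830, minus strand), better known from monocytes and endothelium, had nearly the same value in both conditions. PID+ cells had 952 (407 to 1496) FPKM of it and PID- cells 954 (406 to 1503), a log2 change of -0.0044. Its sign depended on the scaling, with 0.02 at equal upper quartiles of FPKM and -0.63 at equal Gapdh.

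Ly6d (ENSMUSG00000034634.7, chr15:74762056-74763620, minus strand), a lipid-anchored protein of stratified epithelia and early lymphoid cells, stood apart from the other 7 genes by its low level. It measured 0.758 (0 to 2.27) FPKM in PID+ against 3.96 (0 to 9.38) in PID- cells, ranks 11524 and 9752. Its log2 change of -1.50 was just short of 3-fold, but passed it with a pseudocount of 0.1 (-2.24), at equal Gapdh (-1.73) and with the chromosome median subtracted (-1.68). Without a pseudocount, the FPKM of Ly6d in PID- cells was 5.22 times that in PID+ cells. Ly6d has 1 annotated transcript of 744 bases, from which its fragments could be estimated, since low FPKM of such genes fall on steps. These steps gave about 29 fragments in PID+ and 207 in PID- cells. The deposited intervals nevertheless both began at 0 and overlapped, so the lower value in PID+ cells was within the deposited error.

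**Figure D1:**
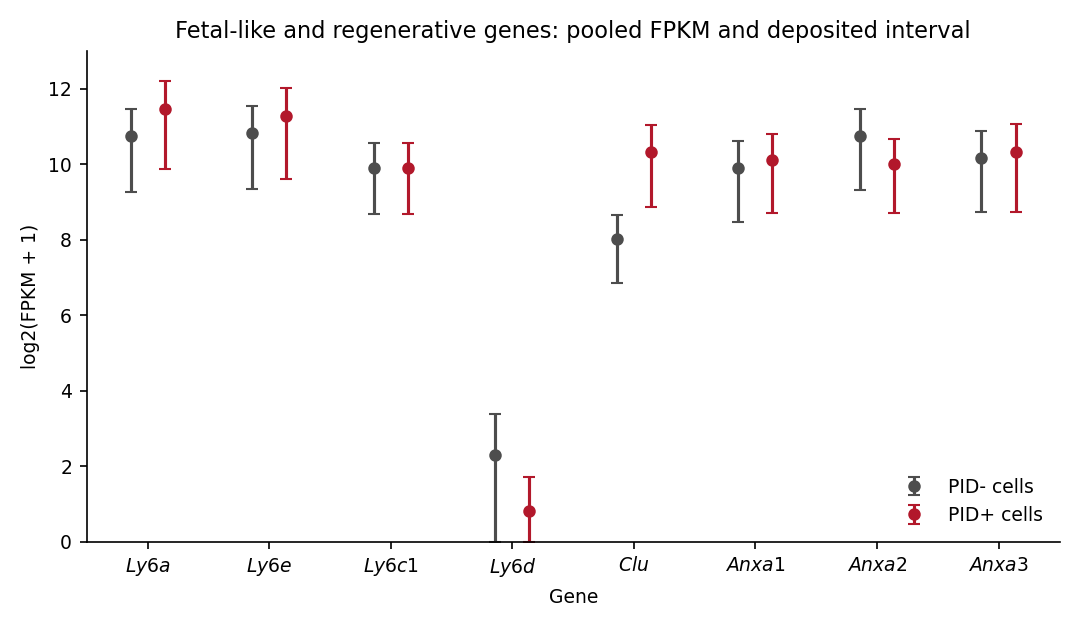
Points show the pooled FPKM of each of the 8 genes as log2(FPKM + 1) in PID- (grey) and PID+ (red) cells, and bars the deposited confidence interval. The bars are apart for Clu (464 against 403 at the facing bounds) and overlap for the other 7 genes, and Ly6d lies far below the rest.

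Because Ly6 genes arose by duplication, short reads can fit several of them. Every stretch of 50 bases, the read length given in the labels, was taken from the protein-coding transcripts of each gene and looked up in the transcripts of all other genes. Of the 1764 such stretches of Ly6c1, 32.8% also occurred in another protein-coding gene, with 379 shared with Ly6c2, 195 with Ly6a and 4 with Ly6i. Of the 1297 of Ly6a, 17.7% did, with 195 shared with Ly6c1, 31 with Ly6i and 3 with Ly6c2. Ly6d, Ly6e, Clu, Anxa1 and Anxa2 shared none with any gene, and Anxa3 shared 66 with Gm42603, an unconfirmed transcript that overlaps it. The FPKM of Ly6a and Ly6c1 are therefore less certain than those of the other 6 genes.

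Ly6a and Ly6c1, which share 195 stretches, were both abundant, while Ly6c2 and Ly6i were far less so. Ly6c2 measured 9.32 (0.784 to 17.8) FPKM in PID+ against 6.80 (0 to 13.6) in PID- cells, and Ly6i had 1.07 (0 to 3.26) and 1.47 (0 to 4.02). How the fragments that fit several Ly6 genes were divided among them cannot be read from FPKM, and a paired mate may still have placed some of them, so the split between Ly6a, Ly6c1, Ly6c2 and Ly6i was not tested. Both Ly6c2 and Ly6i had intervals that overlapped between the conditions.

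The coding sequences show where a read can tell these genes apart. Ly6c1 and Ly6c2 are identical at 97.7% of aligned coding bases, with an unbroken shared run of 188 bases, while Ly6a and Ly6c1 are identical at 81.8%, with a longest run of 48 bases. For Ly6a and Ly6i these values are 86.3% and 80 bases. The first 150 coding bases are printed from the Gencode M21 transcripts, 5′ to 3′, with capitals at the bases that differ within each pair. They lie on the minus strand of GRCm38 and are joined across an intron, within chr15:75047390-75048511 for Ly6c1, chr15:75110548-75111667 for Ly6c2 and chr15:74996489-74997604 for Ly6a. Ly6c1 and Ly6c2 differ at 6 of these 150 bases, all of them in the first part of the stretch.
Ly6c1: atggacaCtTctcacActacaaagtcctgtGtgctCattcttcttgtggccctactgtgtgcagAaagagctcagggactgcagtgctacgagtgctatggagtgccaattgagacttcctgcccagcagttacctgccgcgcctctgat
Ly6c2: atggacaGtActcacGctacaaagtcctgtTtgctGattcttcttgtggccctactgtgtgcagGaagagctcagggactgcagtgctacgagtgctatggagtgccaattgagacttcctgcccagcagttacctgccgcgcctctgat
In the pair of Ly6a and Ly6c1, 14 of the 150 bases differ, and since the longest run shared by the coding sequences is 48 bases, no stretch of 50 coding bases is common to both genes.
Ly6a: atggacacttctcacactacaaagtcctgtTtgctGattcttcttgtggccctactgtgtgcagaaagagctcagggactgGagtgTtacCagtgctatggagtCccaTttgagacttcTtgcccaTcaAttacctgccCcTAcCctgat
Ly6c1: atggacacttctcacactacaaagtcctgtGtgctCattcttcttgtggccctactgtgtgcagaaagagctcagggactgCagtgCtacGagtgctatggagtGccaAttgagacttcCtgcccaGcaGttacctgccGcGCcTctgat

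The 4 Ly6 genes lie in a cluster on chromosome 15. Between Psca and Gpihbp1, chr15:74714839-75599481, the table holds 25 genes, 17 of them from the Ly6/uPAR family. Of these 17 family genes, 5 reached an FPKM of 100 in either condition, namely Ly6a, Ly6c1, Ly6e, Psca and Ly6g, another 5 reached an FPKM of 1, and 7 stayed below 1, with Ly6l and Gpihbp1 listed at 0 in both conditions. High expression was thus not a property of the whole cluster, since Ly6i between Ly6e and Ly6a stayed near an FPKM of 1.

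Ly6g, a granulocyte antigen next to Ly6c2, had the largest log2 change of the 17 family genes of the cluster. It reached an FPKM of 100 in PID+ cells only. It measured 109 (30.3 to 188) FPKM in PID+ against 15.5 (0 to 33.2) in PID- cells, and the log2 change was 2.74, though the intervals overlapped between 30.3 and 33.2. Ly6f was lower in PID+ cells, at 1.05 (0 to 2.79) against 7.73 (0 to 17.0), a log2 change of -2.09. Psca measured 85.4 (31.9 to 139) FPKM in PID+ against 166 (70.7 to 260.4) in PID- cells, also with overlapping intervals. Changes in the cluster thus went both ways. The genes of chromosome 15 with a mean FPKM of at least 5 had a median log2 change of 0.19 (381 genes).

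**Figure D2:**
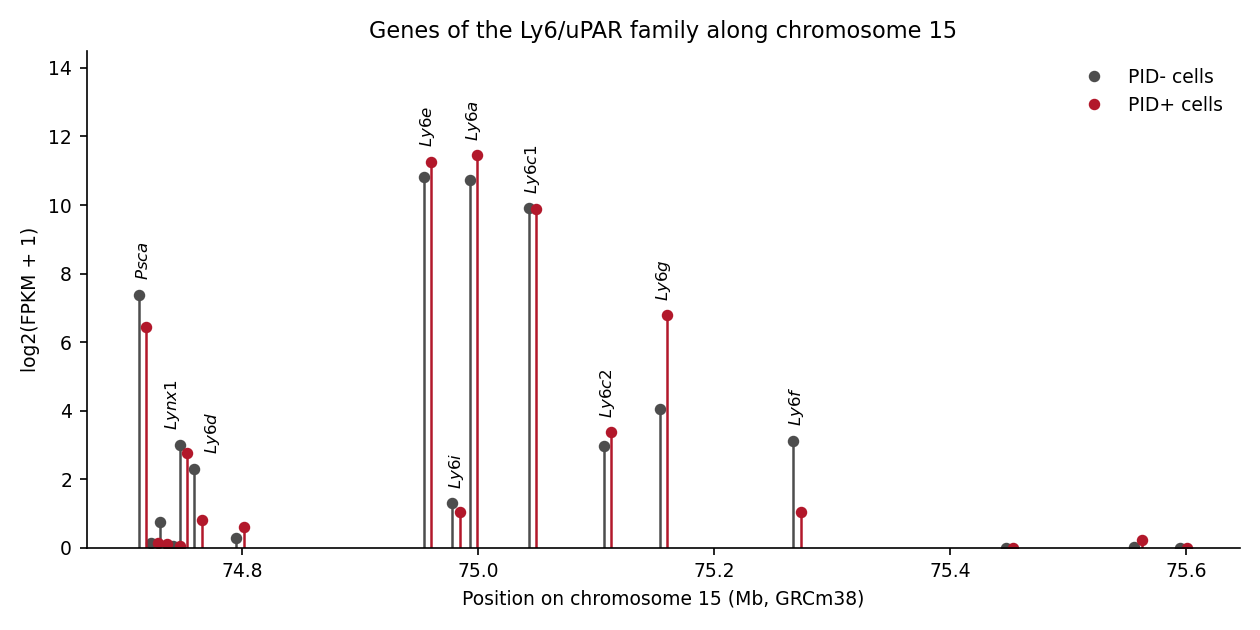
Genes of the Ly6/uPAR family are drawn at their position on chromosome 15 (Mb, GRCm38), with height giving log2(FPKM + 1) in PID- (grey) and PID+ (red) cells, set side by side for each gene. Genes that reached an FPKM of 1 are named, and Ly6e, Ly6a and Ly6c1 stand above all other family genes of the stretch in both conditions.

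Over the whole Ly6/uPAR family, 31 of 33 listed genes were found (Ly6m and Ly6g2 were not), and 18 reached an FPKM of 1 in the higher condition. At least 3-fold higher were Ly6g and Ly6g6c, a gene of the other Ly6 cluster on chromosome 17 measuring 6.93 (0 to 16.2) FPKM in PID+ against 0.246 (0 to 0.692) in PID- cells. Ly6f was at least 3-fold lower. Over the 31 genes the log2 changes had a median of 0.02, or -0.0046 at equal Gapdh and 0.40 over the 18 genes that reached an FPKM of 1, against 0 over all genes, and none of the 31 had intervals apart. Summed over the family, FPKM came to 6533 in PID+ against 4746 in PID- cells, most of it from Ly6a, Ly6e and Ly6c1. At equal Gapdh the sum was instead lower in PID+ cells.

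Ly6a and Ly6e are both induced by interferon in many cell types, so a list of 20 interferon response genes was set beside them. In PID+ cells all 20 stood higher, 6 of them at least 3-fold, and their log2 changes had a median of 1.03. At equal Gapdh this median was 0.57, Cxcl10 was no longer higher, Ifi44 and Xaf1 were within 3-fold and the intervals of Usp18 overlapped. Of these, Usp18, a protease that removes Isg15 from proteins, measured 17.5 (4.48 to 30.4) FPKM in PID+ against 1.84 (0 to 4.26) in PID- cells and was the only one with intervals apart. Oasl2 (13.4 against 0.684), Oas1a (10.9 against 0.943), Isg15 (15.6 against 2.46), Ifi44 (6.86 against 1.35) and Xaf1 (22.4 against 6.74) had overlapping intervals. Bst2 was the most abundant of the list, measuring 79.3 (27.3 to 131) FPKM in PID+ against 33.8 (4.46 to 63.2) in PID- cells. The 20 genes added up to 232 FPKM in PID+ against 78.6 in PID- cells, low beside Ly6a and Ly6e. Whether the levels of Ly6a and Ly6e follow this list was not tested.

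Among the annexins, Anxa1 (ENSMUSG00000024659.11, chr19:20373428-20390944, minus strand) limits inflammation when released, through formyl peptide receptors. It measured 1102 (414 to 1790.35) FPKM in PID+ against 955 (353 to 1556) in PID- cells, and the intervals overlapped. The log2 change of 0.21 turned to -0.42 at equal Gapdh. Its receptors were hardly expressed, with an FPKM of 0.270 and 0.121 for Fpr1 and of 0.0209 and 0.0112 for Fpr2 in PID+ and PID- cells.

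Anxa2 (ENSMUSG00000032231.11, chr9:69453620-69491795, plus strand) forms a complex with S100a10 that binds plasminogen at the cell surface. It was the only abundant gene of the 8 with a lower FPKM in PID+ cells under each scaling, at 1021 (418 to 1625) against 1728 (632 to 2824) in PID- cells, but the intervals overlapped from 632 to 1625. Its log2 change was -0.76, and ranged from -1.38 to -0.67 over the alternatives. S100a10 had a similar ratio, measuring 581 (267 to 894) FPKM in PID+ against 1047 (470.3 to 1624) in PID- cells and a log2 change of -0.85. The FPKM of Anxa2 was thus 1.76 times that of S100a10 in PID+ and 1.65 times in PID- cells, so the mRNA levels of the 2 genes stood in nearly the same proportion.

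Anxa3 (ENSMUSG00000029484.9, chr5:96793339-96845966, plus strand), an annexin of epithelia and neutrophils, had the smallest log2 change after Ly6c1, at 0.14. PID+ cells had 1272 (426 to 2118) FPKM of it and PID- cells 1151 (423 to 1880.1), and the log2 change was -0.48 at equal Gapdh. In the annotation Anxa1, Anxa2 and Anxa3 overlap non-coding genes (1500015L24Rik for Anxa1, Mir3109 and Gm16144 for Anxa2, Gm42603 for Anxa3), none of which is a protein-coding gene of the kind the authors' annotation held.

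Of the 12 annexin genes, only Anxa6 was at least 3-fold changed. It measured 38.8 (15.5 to 62.1) FPKM in PID+ against 219 (98.6 to 339) in PID- cells, intervals that lay apart, and its log2 change was -2.46. The log2 changes of all 12 had a median of 0.14, which turned to -0.46 at equal Gapdh and to -0.06 with chromosome medians subtracted, so the family had no fixed direction. Anxa1, Anxa2 and Anxa3 were the most abundant annexins in both conditions, and the family added up to 3888 FPKM in PID+ against 4578 in PID- cells.

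Genes that work with annexins and clusterin had a median log2 change of 0.0071, or -0.17 at equal Gapdh and -0.0056 with chromosome medians subtracted. Of these 12 genes 7 were higher and 5 lower. Only Vldlr, a lipoprotein receptor that can bind clusterin, was past 3-fold, at an FPKM of 9.80 (1.10 to 18.5) in PID+ and 34.1 (5.60 to 62.7) in PID- cells with overlapping intervals. S100a6 was the most abundant of the list, with 2355 (913 to 3796) and 2706 (888 to 4525). S100a11, which binds Anxa1, measured 2203 (958 to 3448) FPKM in PID+ against 1508 (686 to 2330.4) in PID- cells. The receptors Lrp2 and Trem2, which can also bind clusterin, were at or near 0 in both conditions.

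The order of the 8 genes by FPKM differed between the conditions mainly by Clu and Anxa2. In PID+ cells it ran from Ly6a through Ly6e, Clu, Anxa3, Anxa1, Anxa2 and Ly6c1 to Ly6d, and in PID- cells from Ly6e through Anxa2, Ly6a, Anxa3, Anxa1, Ly6c1 and Clu to Ly6d. In PID+ cells the intervals of the first 7 genes all overlapped that of Ly6a, so their order was not resolved, and only Ly6d lay apart. In PID- cells the interval of Clu lay below that of Ly6c1, its neighbour in the order, and above that of Ly6d. It overlapped that of Anxa1, but of none of the other abundant genes, whereas in PID+ cells it overlapped all of them. On the FPKM scale Clu reached 0.459 of the level of Ly6a in PID+ and 0.152 in PID- cells.

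Together the 8 genes made up 1.86% of the summed FPKM in PID+ and 1.57% in PID- cells. Added up, they came to 10895 FPKM in PID+ against 8570.5 in PID- cells, or to 9608 against 8311 when Clu was left out. At equal Gapdh both sums were instead lower in PID+ cells. The log2 changes of the 8 genes had a median of 0.18, or of -0.45 at equal Gapdh, so no common direction held for them. In PID+ cells 5 of them were higher and 3 lower, while 9001 of all genes were higher and 8726 lower.

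A wider list of 22 genes of the same program gave a similar picture. All 22 reached an FPKM of 1 in a condition, 14 were higher and 8 lower in PID+ cells, and the median log2 change was 0.12, or -0.50 at equal Gapdh. Ccn1, a Yap target, was at least 3-fold higher, though not at equal Gapdh, measuring 165 (75.7 to 255) FPKM in PID+ against 51.2 (21.3 to 81.1) in PID- cells with overlapping intervals. At least 3-fold lower were Spp1, a secreted matrix protein, with 63.8 (25.4 to 102) and 782 (338 to 1226) and intervals apart, and the growth factor Ereg, with 7.96 (2.18 to 13.8) and 29.0 (12.5 to 45.5). The genes of the program thus did not shift together. S100a6 was also the most abundant of this list.

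Homeostatic crypt stem cell genes differed widely in level, and 12 reached an FPKM of 1 in a condition. Of the 14 listed, 2 were higher and 11 lower in PID+ cells, Olfm4 was listed at 0 in both conditions, and the median log2 change was -0.23, or -0.76 at equal Gapdh. At least 3-fold lower were Smoc2 (0.0276 against 5.18, with intervals apart), Lgr5 (0.755 against 6.27), Tnfrsf19 (3.33 against 13.9) and Axin2 (18.1 against 59.6). Prom1 was the most abundant, measuring 340 (131 to 548) FPKM in PID+ against 125 (51.6 to 198) in PID- cells. Set against Lgr5 at these values, Ly6a, Ly6c1, Ly6e, Anxa1, Anxa2 and Anxa3 were each at an FPKM of 951.5 or more in both conditions.

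**Figure D3:**
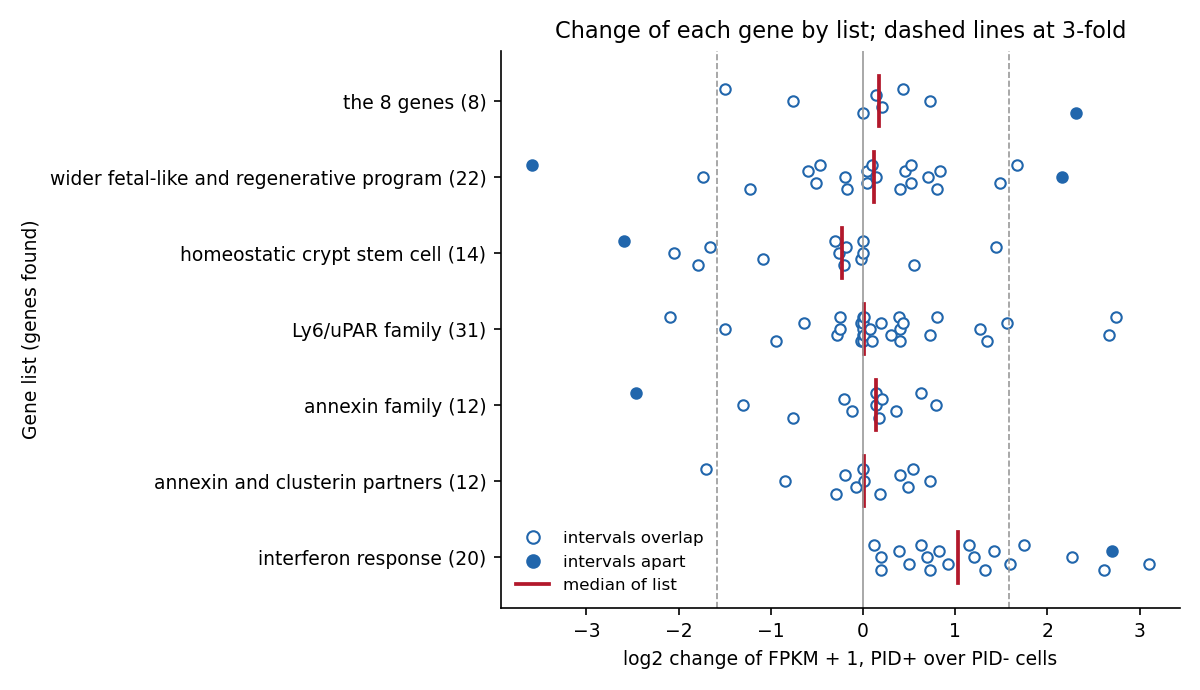
Each circle is the log2 change of FPKM + 1 of a gene in PID+ over PID- cells, by gene list, with filled circles for deposited intervals that do not overlap, red bars for the median of the list and dashed lines at 3-fold. Among the 8 genes Clu alone lies beyond a dashed line, and the interferon list is the only list shown with all of its genes above 0.

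The samples are bulk RNA, in which fewer cells of a type and less RNA per cell cannot be told apart, so markers of other cell types were read beside the 8 genes. Of 12 colon epithelium markers 8 were higher and 3 lower in PID+ cells (median log2 change 0.65, but 0.25 at equal Gapdh and 1.08 over genes with a mean FPKM of 1 or more), and they added up to 9087 FPKM in PID+ against 4994 in PID- cells. Krt18 had the highest single level, with 2843 (879.6 to 4807) and 1199 (486 to 1913). At least 3-fold higher were Epcam (401 against 124) and Cldn7 (274 against 79.4), both no longer so at equal Gapdh, and at least 3-fold lower were Cdh17 (1.67 against 25.9, with intervals apart) and Cdx2 (0.542 against 8.04). Cdx1 was listed at 0 and Vil1 stayed at 0.175 and 0.0614, whereas Krt20 measured 158 FPKM in PID+ against 73.5 in PID- cells. The keratins of simple epithelium were thus abundant. Of the intestinal markers, Cdx1, Cdx2, Vil1, Cdh17 and Lgals4 were low in PID+ cells, while Krt20 was not. Lgals4 measured 1.86 FPKM in PID+ against 3.43 in PID- cells, with overlapping intervals.

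Ly6d and Ly6a also occur outside gut epithelium, and most haematopoietic, endothelial and smooth muscle markers stayed below an FPKM of 1. Markers of stratified epithelia, where Ly6d is also found, reached higher levels and are given below. The 8 haematopoietic markers added up to 22.0 FPKM in PID+ against 17.2 in PID- cells, the 6 endothelial markers to 3.90 against 1.17 and the 4 smooth muscle markers to 4.75 against 10.03. Their median log2 changes were 0.0047 (-0.01 at equal Gapdh), 0.13 and 0.0037 (-0.05 at equal Gapdh), with 4 higher and 3 lower, 6 higher and 0 lower, and 2 higher and 2 lower. A filter at a mean FPKM of 1 left 1 gene in each list, with log2 changes of 0.35, 1.11 and -0.998. Of the haematopoietic markers only Cd68 reached an FPKM of 1, at 21.8 (4.23 to 39.4) in PID+ and 16.8 (2.09 to 31.6) in PID- cells, and Ptprc, Cd3e, Itgam and Adgre1 were each below 0.1. Of the endothelial markers only Kdr did, at 3.33 (0.561 to 6.10) and 1.01 (0 to 2.18), with Pecam1 at 0.0960 and 0.0931. Among the smooth muscle markers Acta2 was the most abundant, at 4.39 (0 to 9.23) and 9.76 (1.11 to 18.4).

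The 10 stratified epithelium markers, 7 higher and 3 lower in PID+ cells, had a median log2 change of 0.31, or -0.10 at equal Gapdh. They added up to 131 FPKM in PID+ against 106 in PID- cells, with Krt6a as the most abundant (67.4 and 49.4). Sfn was at least 3-fold higher in PID+ cells (49.0 against 13.1), though not at equal Gapdh, while Krt13 (5.53 against 37.6) and Upk1b (0 against 2.04) were at least 3-fold lower, all with overlapping intervals. Of the basal layer genes, Krt5 and Trp63 stayed below an FPKM of 1, while Krt14 had 2.18 in PID+ against 0.0912 in PID- cells and Dsg3 1.44 against 0.135. Of 8 fibroblast markers 7 were lower and none higher in PID+ cells. Their median log2 change was -1.31, or -2.41 with a pseudocount of 0.1 and -2.20 over genes with a mean FPKM of 1 or more. They added up to 3.005 FPKM in PID+ against 34.1 in PID- cells. Col1a2, the most abundant in PID- cells just ahead of Col1a1, had 0.0654 (0 to 0.242) in PID+ and 11.9 (4.07 to 19.7) in PID- cells, with intervals apart. In PID+ cells Col1a1 was the most abundant, at 2.32 against 11.85 in PID- cells. Col1a1, Col3a1 and Dcn were also at least 3-fold lower, and Lum was listed at 0 in both conditions. The part of these markers in the values of the 8 genes was not tested.

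As controls, Gapdh measured 2570.3 (650.2 to 4490.4) FPKM in PID+ against 1666 (511 to 2822) in PID- cells, a ratio of 1.54 with overlapping intervals. Setting it equal moved the median log2 change of all genes from 0 to -0.08. Among the kinases that the PID peptide inhibits, Pak1 had an FPKM of 17.6 (6.28 to 28.9) and 23.4 (9.08 to 37.6), Pak2 39.5 (17.6 to 61.5) and 52.6 (23.7 to 81.5), and Pak3 14.7 (0 to 35.2) and 75.9 (0 to 172). All 3 intervals overlapped between the conditions. The peptide acts on kinase activity, so these mRNA levels do not check the genotype.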

How the data were processed

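Total RNA of PID+ and PID- primary colon tumor cells was sequenced by the study. Adapters were trimmed with cutadapt, and TopHat placed the reads of the 3 sets of a condition, merged, on GRCm38.p3 with an annotation of protein-coding genes. The FPKM deposited by the authors came from CuffDiff, with the bounds of its confidence intervals. Compatible hits normalization was switched on in CuffDiff, and the annotation release and the method that scales libraries to each other are not given in the sources used here. The deposited intervals cover the error model of CuffDiff only.

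Of 21966 genes, 7 with a status other than OK were left out. Symbols matched 21727 of the 21959 genes used. Changes were log2((FPKM in PID+ + 1)/(FPKM in PID- + 1)), called at 3-fold. A test per sample had been planned for the case that values per sample were found, and none was run. Positions and transcripts came from Gencode M21. Fragments of Ly6d were estimated from FPKM times transcript length less 190 bases, where 1 fragment was worth 14.6 in PID+ and 10.6 in PID- cells.

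The members and lists were chosen with earlier results of these data known. Named genes were the 8 genes, list genes changed at least 3-fold that reached an FPKM of 1 (at most 6 per direction), the most abundant gene of each list, the 3 genes nearest to Clu, Gapdh, the Paks and genes sharing 50-base stretches. Not every gene that met this rule is reported here. Other named genes (S100a10, S100a11, the receptors, Psca, Vil1 and further markers) were chosen after their values were seen, as was the threshold of 100 FPKM. Alternatives were another pseudocount, 3 scalings, subtraction of chromosome medians, filters at a mean FPKM of 1 and 5, calls by intervals apart and a 2-fold threshold. The calculations were tested on simulated data. Python 3.11.15, numpy 2.4.6, pandas 2.3.3, Biopython 1.88 and matplotlib 3.10.9 were used.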

Additional observations from a re-analysis of the deposited data

How the results depend on the processing

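Clu stayed at least 3-fold higher in PID+ cells under each alternative run, with log2 changes from 1.68 at equal Gapdh to 2.33 at equal upper quartiles of FPKM. Ly6d, at -1.50, passed 3-fold with a pseudocount of 0.1 (-2.24), at equal Gapdh (-1.73) and with the chromosome median subtracted (-1.68), and gave no value with a mean FPKM of at least 5, which it did not reach. The other 6 genes stayed within 3-fold. Ly6c1 moved to -0.63 at equal Gapdh, and the signs of Ly6e, Anxa1 and Anxa3 turned there.

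Of list medians, equal Gapdh moved that of the 8 genes to -0.45, of the wider program to -0.50, of the annexins to -0.46, of crypt stem cell genes from -0.23 to -0.76, of interferon genes from 1.03 to 0.57 and of colon epithelium markers from 0.65 to 0.25 (1.08 under the filter at 1). Fibroblast markers moved to -2.41 with a pseudocount of 0.1, and to -2.20 and -2.77 under filters at a mean FPKM of 1 and 5. Endothelial markers moved to 0.85 with a pseudocount of 0.1 and to 1.11 under the filter at 1, which left 1 gene, and smooth muscle markers to -0.998 with either filter, again 1 gene. At equal Gapdh, the summed FPKM of the 8 genes and of the Ly6/uPAR family turned to lower in PID+ cells. The same held for the sums of stratified epithelium and haematopoietic markers.

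Genes at least 3-fold higher and lower numbered 229 and 377, but 621 and 795 with a pseudocount of 0.1, 76 and 662 at equal Gapdh (10.3% higher, against 37.8%), 144 and 221 under the filter at 5, 41 and 119 by intervals apart, and 726 and 828 at 2-fold. The cause of these shifts was not tested. Each condition has 1 pooled value, so leaving out a replicate was not possible. No paired analysis was possible because the values are pooled over samples.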
